A study of Homo sapiens with 15 samples.

Results

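CDKN2A, CDKN2B and MTAP, neighbours in the 9p21 region of chromosome 9, and the G1 phase genes RB1, CDK4, CDK6, CCND1, CCND2, CCNE1 and CDKN1B were 10 of the 33158 genes in an expression table of triple negative breast cancer cell lines. They were taken from the table by symbol and had been chosen by their measured values, namely CDKN2A, CDKN2B and MTAP near 0 in the line SUM149PT beside genes of the RB pathway. Levels that differ between the lines are therefore given as a description, without a test. The values are FPKM (mapped fragments per kilobase, relative to the total of the library), a level per transcript length.

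Messenger RNA was measured in 15 libraries, 3 in each of 5 groups, to ask what sets cells with a stem cell phenotype apart in triple negative breast cancer. Cancer stem cells (CSC, with CD44 on the surface and little or no CD24, CD44+/CD24-/low) and the other cells (non-CSC) were sorted by flow cytometry from the established lines SUM149PT and HCC1937. The established line SUM159PT was sequenced unsorted, since nearly all of its cells have the CSC surface phenotype, and its label calls it cancer stem cells. The labels give no treatment, and they do not say whether the 3 libraries of a group are separate cultures, so the p-values below measure only the spread between these libraries, which may be technical.

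Each line stands for the cells of a single tumour, and the sort defines CSC by CD44 and CD24 alone. CD24 itself was 7.97, 7.64 and 7.61 FPKM in the SUM149PT CSC libraries and 147, 137 and 134 in non-CSC. In HCC1937 it was 23.6, 22.5 and 23.9 FPKM in CSC and 167, 141 and 142 in non-CSC, so the fractions did not overlap in either sorted line. CD44, by the test described below, was higher in SUM149PT CSC without overlap (log2 fold change 0.39, adjusted p = 0.00168) and overlapped between the HCC1937 fractions (0.12, adjusted p = 0.314), with levels from a mean of 28.8 FPKM in SUM159PT to 106 in HCC1937 CSC.

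Read counts are not in the table, so the absolute depth of the libraries is unknown. From the most frequent ratio between the values of 125 to 463 low level genes, the other 14 libraries had an estimated depth of 0.853 to 1.08 of that of SUM149PT CSC library 1. A value of 0 is not by itself a measure of absence in this table, since the absolute depth is unknown. Among 80 genes picked by a ribosomal protein symbol, 2 to 5 were listed at 0 in each library and 7 to 9 were under 1 FPKM. The symbols also admit paralogs that not every cell needs, and which genes were at 0 was not examined, so these counts do not show what a 0 means.

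SUM159PT stood apart from the other groups in the make-up of its values. Its FPKM summed to 634746 to 652082 per library, against 291276 to 366532 in the 12 sorted libraries, and 8534 to 8670 of its genes were above 1 FPKM, against 11249 to 11997. The log2 ratio of SUM159PT to SUM149PT CSC rose with the GC content of the transcript (Spearman's rho 0.615 across 12496 genes, which are not independent replicates). These were 90.3% of the 13840 genes whose mean reached 1 FPKM in any group, and the same rho was -0.128 for CSC over non-CSC in SUM149PT and -0.178 in HCC1937. For the 10 genes, the median log2 ratio of genes within 1 percent of the same GC content is given with the SUM159PT level, and for other genes it is not.

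In the G1 phase of the cell cycle, D cyclins with CDK4 or CDK6 and then E cyclins with CDK2 phosphorylate the retinoblastoma protein RB, which releases E2F transcription factors and lets DNA synthesis begin. INK4 inhibitors such as p16 and p15 block CDK4 and CDK6, and CIP/KIP inhibitors such as p27 block CDK2, so that the pathway holds both brakes and drivers. The 9p21 region that carries the genes of p16 and p15 is often lost in human tumours, breast cancer included, and MTAP, beside them, can be lost with them. DNA was not measured in these libraries.

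CDKN2A, CDKN2B and MTAP were at 15.1 FPKM or more in each HCC1937 library and at most 0.172 FPKM in each library of SUM149PT and SUM159PT. CDKN2A encodes p16 and, from another first exon, ARF, a protein that protects p53. The table holds a single value for the symbol, so the 2 products cannot be told apart. It lies on GRCh38 chromosome 9 from 21967753 to 21995301 on the minus strand, followed by CDKN2B from 22002903 to 22009363 on the same strand, with MTAP from 21802543 to 21937651 on the plus strand. The promoters of these 3 genes are shown because the genes differ together between the lines: each line gives the 250 bases before a start in the RefSeq promoter table of GRCh38.p14, 5′ to 3′ on the strand of the gene, with GC boxes in capitals. The table has an entry for 8 of the 10 genes, and for CDKN2A it holds the start of p16 at chr9:21974858-21975107 and that of ARF at chr9:21995325-21995574, both on the minus strand. The stretch of CDKN2B is chr9:22009306-22009555 (minus strand) and that of MTAP is chr9:21802386-21802635 (plus strand). The RefSeq starts of CDKN2B, MTAP and p16 lie inside the gene bounds given above, which are those of GENCODE, so these 3 stretches lie wholly or partly within their own gene. The stretches of ARF and CDKN2B also lie inside CDKN2B-AS1, an antisense transcript from 21994778 to 22121097 on the plus strand.
CDKN2A, p16 start: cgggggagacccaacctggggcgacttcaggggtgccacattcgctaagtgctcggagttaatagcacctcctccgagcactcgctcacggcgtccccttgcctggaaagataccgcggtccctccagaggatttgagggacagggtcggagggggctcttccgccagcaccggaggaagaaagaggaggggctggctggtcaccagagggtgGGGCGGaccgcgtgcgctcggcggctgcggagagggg
CDKN2A, ARF start: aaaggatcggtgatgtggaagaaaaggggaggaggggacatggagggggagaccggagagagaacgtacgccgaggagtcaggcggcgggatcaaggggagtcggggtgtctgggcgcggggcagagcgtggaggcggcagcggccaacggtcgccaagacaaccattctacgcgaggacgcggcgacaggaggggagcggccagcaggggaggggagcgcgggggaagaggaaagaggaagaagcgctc
CDKN2B: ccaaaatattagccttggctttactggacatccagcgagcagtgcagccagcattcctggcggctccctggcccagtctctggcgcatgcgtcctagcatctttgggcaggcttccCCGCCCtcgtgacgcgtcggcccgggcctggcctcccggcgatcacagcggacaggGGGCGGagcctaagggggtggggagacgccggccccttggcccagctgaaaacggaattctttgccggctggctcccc
MTAP: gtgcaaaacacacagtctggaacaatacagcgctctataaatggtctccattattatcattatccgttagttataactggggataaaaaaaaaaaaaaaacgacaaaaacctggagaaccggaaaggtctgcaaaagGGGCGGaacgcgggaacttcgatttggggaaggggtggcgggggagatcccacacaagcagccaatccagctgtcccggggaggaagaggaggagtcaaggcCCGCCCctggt

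A GC box here is GGGCGG on either strand, read as CCGCCC on the other, and at least 1 was in 42.6% of the 35116 promoters of the same length in the RefSeq table (14973 promoters). The p16 start of CDKN2A had 1, the ARF start 0, CDKN2B 2 and MTAP 2. The stretches also differed in CG pairs, with 20 before the p16 start, 24 before the ARF start, 18 in CDKN2B and 11 in MTAP, where the median over the promoters was 11. These letters describe the sequence, and neither methylation nor the binding of a factor was measured.

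CDKN2A was 0.0233, 0 and 0.103 FPKM in the SUM149PT CSC libraries, 0.0626, 0.172 and 0 in SUM149PT non-CSC and 0.0438, 0.0448 and 0.0906 in SUM159PT. In HCC1937 it was 57.7, 48.1 and 47.6 FPKM in CSC and 47.9, 50.001 and 42.2 in non-CSC. Every HCC1937 library was thus far above every library of the other lines, which overlapped each other. Within HCC1937 the fractions overlapped, with 51.1 ± 5.73 FPKM (mean ± SD, n = 3) in CSC and 46.7 ± 4.05 in non-CSC. In the order of group means, HCC1937 CSC came first and HCC1937 non-CSC next, and then, with overlapping ranges, SUM149PT non-CSC, SUM159PT and SUM149PT CSC.

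CDKN2B, the gene of the INK4 inhibitor p15, was 0.00918, 0 and 0.0258 FPKM in SUM149PT CSC, 0.00892, 0.0639 and 0 in SUM149PT non-CSC and 0.0184, 0.0399 and 0.00955 in SUM159PT. HCC1937 had 18.1, 16.1 and 18.0 FPKM in CSC and 25.5, 25.0 and 24.2 in non-CSC. The 3 HCC1937 CSC libraries were all below the 3 non-CSC libraries, and the other 3 groups overlapped each other near 0. Transcripts of CDKN2A and CDKN2B share an exact stretch of 80 bases, and how reads from it were assigned is not stated.

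MTAP encodes methylthioadenosine phosphorylase, which recycles a by-product of polyamine synthesis into methionine. It was 0.0205, 0.0151 and 0.00640 FPKM in SUM149PT CSC, 0.0204, 0.0557 and 0 in SUM149PT non-CSC and 0.00724, 0.00800 and 0.00746 in SUM159PT. In HCC1937 it was 15.3, 15.4 and 16.0 FPKM in CSC and 15.4, 15.7 and 15.1 in non-CSC. The HCC1937 fractions overlapped and lay within about 1 FPKM of each other, and the remaining 9 libraries lay at 0.0557 FPKM or less.

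Such a pattern was rare in the table. Of 5130 genes whose mean reached 10 FPKM in HCC1937, 36 (0.702%) had a mean under 0.1 FPKM in SUM149PT, and 32 were under it in SUM159PT as well. CDKN2A, CDKN2B and MTAP were among the 32, as their choice implies. Per length, CDKN2A in HCC1937 CSC was above 96.8% of the genes of the table, CDKN2B above 90.4% and MTAP above 89.3%. Genes with the GC content of CDKN2A (61.4%) had a median log2 ratio of SUM159PT to SUM149PT CSC of 0.72, those like CDKN2B (44.6%) of -1.70 and those like MTAP (39.1%) of -2.90. The part of base composition in the low SUM159PT values of CDKN2B and MTAP was not tested. In bulk RNA, fewer cells that express a gene and less RNA per cell cannot be told apart.

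**Figure D1:**
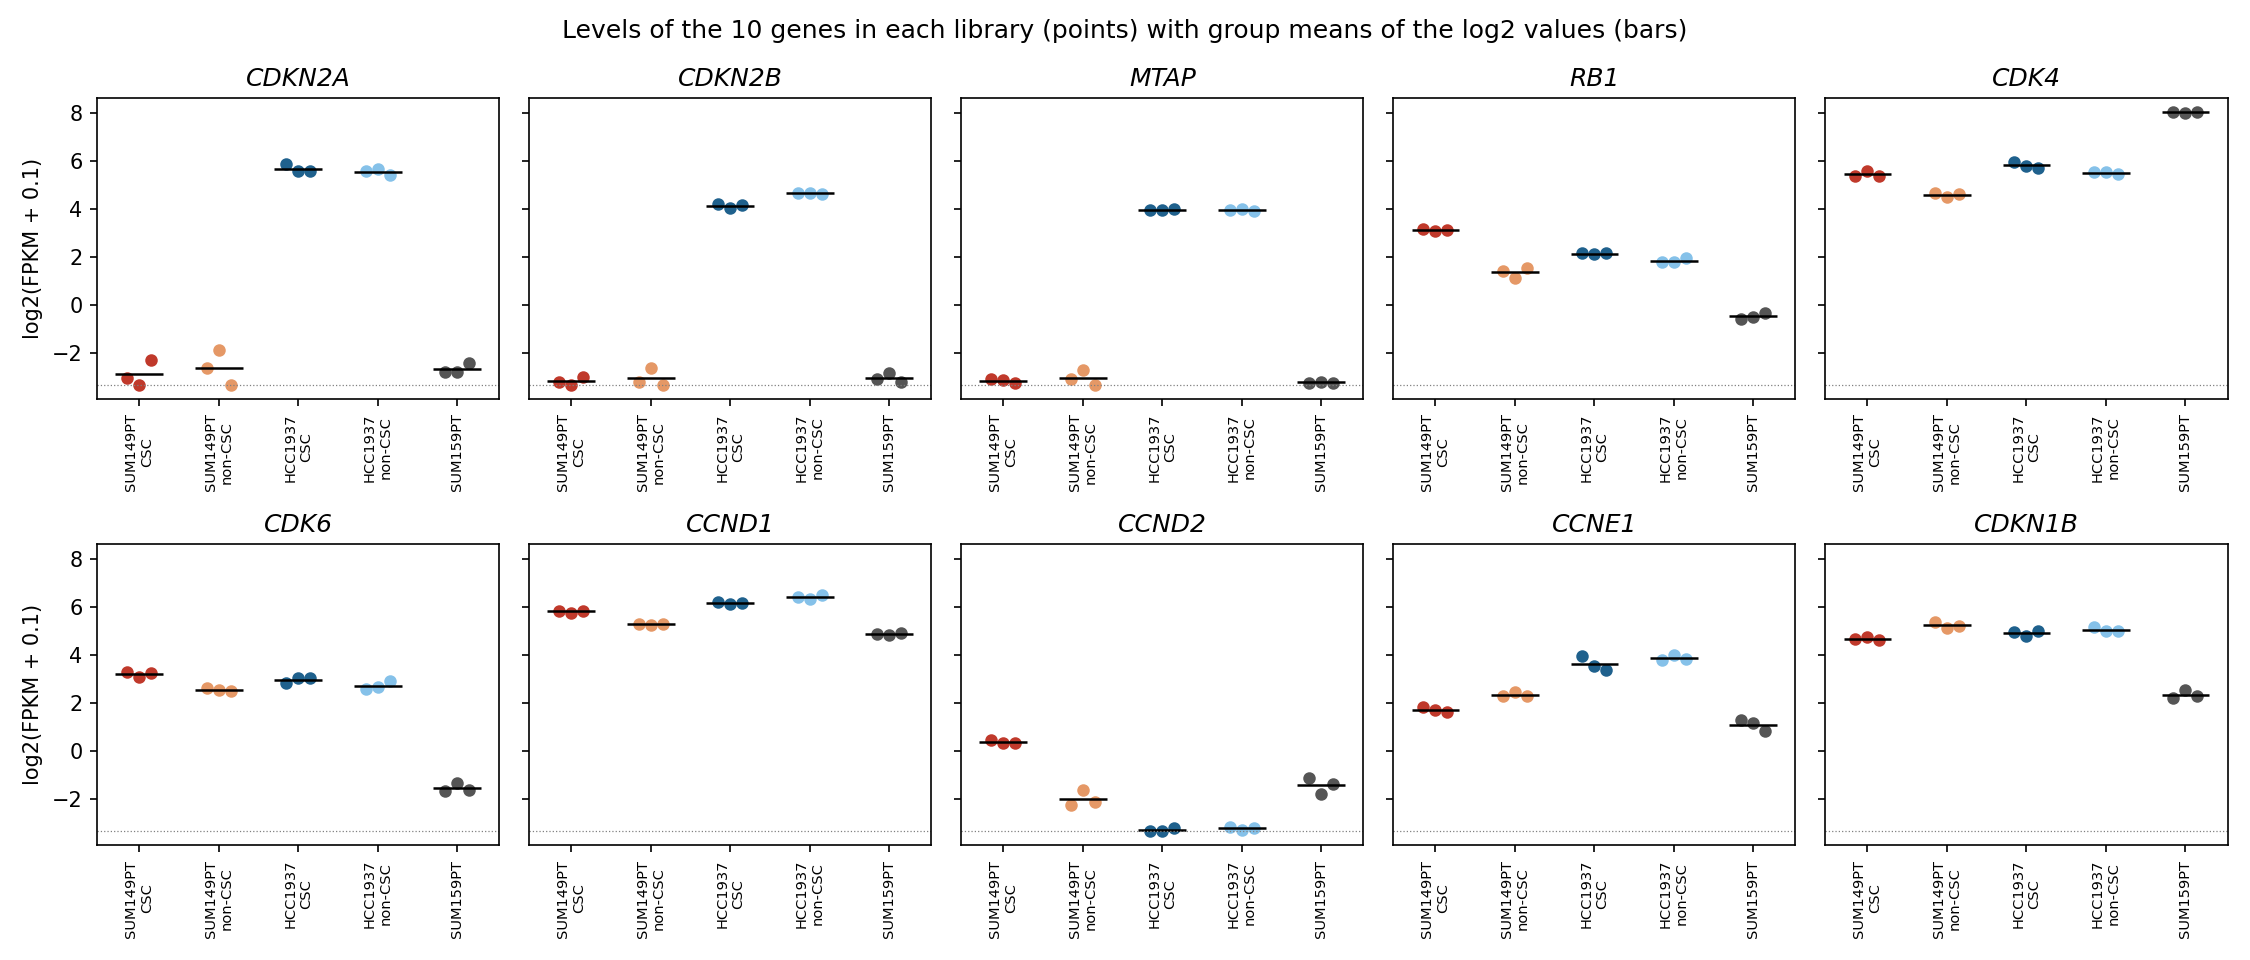
Level of each of the 10 genes as log2(FPKM + 0.1) in the 15 libraries, 1 point a library, with the mean of the log2 values of the group as a bar; the dotted line marks 0 FPKM. CDKN2A, CDKN2B and MTAP lie near the dotted line in SUM149PT and SUM159PT and high in HCC1937, while CCND2 is near it in HCC1937.

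The fractions of each sorted line were compared with limma, a linear model with moderated spread, on log2(FPKM + 0.1), over the genes that averaged 0.1 FPKM or more across the 6 libraries of the line (the expression minimum). Calls needed an adjusted p (Benjamini-Hochberg) of 0.05 or less. Stricter limits were set beside this, namely an adjusted p of 0.0001 or less and a log2 fold change of 1 or more in size. Fold changes are CSC minus non-CSC, and the added 0.1 FPKM makes those of low genes smaller than the ratio of FPKM. Changes were common in SUM149PT, where 11993 of 16037 genes were called (74.8%), 5345 higher in CSC (33.3%) and 6648 lower (41.5%), with 3292 past the stricter limits (20.5%). Against that background, 7 of the 10 genes passed the expression minimum and the same 7 were called, 5 higher (RB1, CDK4, CDK6, CCND1 and CCND2) and 2 lower (CCNE1 and CDKN1B), with RB1 and CCND2 past the stricter limits. The 3 genes of 9p21 did not pass the minimum in SUM149PT.

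In HCC1937, 3985 of 15582 genes were called (25.6%), 1607 higher in CSC (10.3%) and 2378 lower (15.3%). No gene passed the stricter limits in HCC1937 (0 of 15582, 0%) with limma, where the smallest adjusted p was 0.000128, although 5886 genes had an unadjusted p under 0.05. Of the 10 genes, 9 were tested and 3 called, RB1 and CDK4 higher in CSC and CDKN2B lower, and CCND2 was under the minimum. Whether the CSC effect differed between the lines was tested as an interaction in the 12 sorted libraries, where 10053 of 16451 genes were called (61.1%) and 2922 passed the stricter limits (17.8%). Of the 10 genes, 6 were called there (RB1, CDK4, CDK6, CCND1, CCND2 and CDKN1B) and 2 of them passed the stricter limits (RB1 and CCND2). CCND2 entered this fit by its SUM149PT level alone, and without it 5 were called and 1 passed the stricter limits. These shares are read against the backgrounds, and nothing particular to the 10 genes is drawn from them.

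The direction of the background depended on scaling. Of the genes called in SUM149PT, 44.6% were higher in CSC with the values as deposited and 54.9% after quantile normalization, and the median log2 fold change of the genes tested went from -0.11 to 0.10. In HCC1937 the share was 40.3% as deposited, 53% after quantile normalization and 54.3% after rescaling each library to the same sum (TPM), and with TPM the median went from -0.03 to 0.09. For the interaction the median went from -0.08 to 0.06 after quantile normalization and to -0.17 with TPM. No called direction of the 10 genes turned under upper quartile, quantile or TPM scaling, while RB1 in HCC1937 and the interaction of CDK6 were no longer called with TPM. With 3 libraries against 3, an exact two-sided permutation test of a single gene cannot go below p = 0.10.

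Among the INK4 genes, CDKN2B in HCC1937 was the 1 called change of a 9p21 gene. Its means were 17.4 ± 1.09 FPKM in CSC and 24.9 ± 0.655 in non-CSC, a log2 fold change of -0.51 (SE 0.07, adjusted p = 0.00553). The log2 fold change of CDKN2A was 0.13 (adjusted p = 0.463) and that of MTAP 0.01 (adjusted p = 0.892), so neither passed the limit. CDKN2A ranged from 0.04 without HCC1937 CSC library 1 to 0.25 with TPM, and MTAP was 0.14 with TPM, with neither called. MTAP changed sign when HCC1937 CSC library 3 or non-CSC library 3 was left out (log2 fold changes of -0.0053 and -0.0018). No interaction is read for CDKN2A, CDKN2B or MTAP, since they were near 0 and under the expression minimum in SUM149PT, and the test would set the HCC1937 change against that floor.

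The other INK4 genes were not low in SUM149PT. CDKN2C, the gene of p18, was 6.53, 5.84 and 6.34 FPKM in SUM149PT CSC and 2.06, 2.19 and 2.85 in non-CSC, a log2 fold change of 1.37 (SE 0.13, adjusted p = 0.000218), with no overlap. In HCC1937 it was 6.77, 5.17 and 4.35 FPKM in CSC and 4.38, 3.87 and 2.95 in non-CSC, where the fractions overlapped, and it was 15.7 ± 0.897 in SUM159PT. CDKN2D, the gene of p19, went the other way in SUM149PT, from 26.0 ± 0.887 FPKM in non-CSC to 20.0 ± 2.50 in CSC (log2 fold change -0.38, adjusted p = 0.0170). Of the 4 INK4 genes, 2 were tested in SUM149PT, 1 higher and 1 lower in CSC, where 74.8% of the genes tested were called, and 1 of 4 was called in HCC1937, a share like the 25.6% of the genes tested.

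The D cyclins and their kinases drive the first step of RB phosphorylation. CCND1, the gene of cyclin D1, was 57.6, 53.8 and 57.4 FPKM in SUM149PT CSC and 39.0, 38.0 and 39.6 in non-CSC. The HCC1937 values were 74.8, 70.7 and 71.9 FPKM in CSC and 85.1, 81.5 and 90.2 in non-CSC, and in SUM159PT 29.3, 28.3 and 30.3. No neighbouring groups overlapped in the order HCC1937 non-CSC, HCC1937 CSC, SUM149PT CSC, SUM149PT non-CSC and SUM159PT, so the CSC fraction was the higher in SUM149PT and the lower in HCC1937. Its log2 ratio of SUM159PT to SUM149PT CSC was -0.94, where genes of the same GC content had a median of -0.50. The log2 fold change was 0.53 in SUM149PT (SE 0.06, adjusted p = 0.000348) and -0.24 in HCC1937 (SE 0.07, adjusted p = 0.0585). The HCC1937 value missed the limit and passed it in 4 of the other settings tried, over which adjusted p ranged from 0.00826 to 0.461, and it was -0.11 with TPM. The effects differed between the lines by 0.77 (adjusted p = 2.23e-05).

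CCND2, the gene of cyclin D2, followed another order. It was 1.30, 1.19 and 1.19 FPKM in SUM149PT CSC, 0.113, 0.224 and 0.133 in SUM149PT non-CSC and 0.367, 0.194 and 0.294 in SUM159PT. HCC1937 had 0, 0 and 0.0113 FPKM in CSC and 0.0116, 0.00514 and 0.00979 in non-CSC. SUM149PT CSC was above every other group without overlap, SUM159PT and SUM149PT non-CSC overlapped, and both HCC1937 fractions were near 0, the reverse of the line order of CDKN2A, CDKN2B and MTAP. SUM159PT had a log2 ratio of -1.78 to SUM149PT CSC, beside a median of -1.45 at the same GC content. The log2 fold change in SUM149PT was 2.39 (SE 0.17, adjusted p = 5.87e-05), and it was 0.94 with a pseudocount of 1. The interaction call of CCND2 restates this change, since HCC1937 was at most 0.0116 FPKM and under the expression minimum, and it is not read as a difference between the lines. The third D cyclin gene, CCND3, fell in SUM149PT CSC (15.1 ± 1.36 FPKM against 21.1 ± 1.18 in non-CSC, adjusted p = 0.00385) and was 108 ± 1.94 in SUM159PT.

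CDK4, a catalytic partner of the D cyclins, was 41.7, 47.6 and 40.7 FPKM in SUM149PT CSC and 25.0, 22.2 and 24.5 in non-CSC. It was 61.8, 55.5 and 52.7 FPKM in HCC1937 CSC, 46.2, 46.1 and 44.1 in HCC1937 non-CSC and 259, 256 and 264 in SUM159PT. SUM159PT was highest and SUM149PT non-CSC lowest, both apart from the rest, and HCC1937 non-CSC overlapped SUM149PT CSC. Its log2 ratio of SUM159PT to SUM149PT CSC was 2.58, where genes of the same GC content had a median of 0.15. In SUM149PT the log2 fold change was 0.85 (SE 0.09, adjusted p = 0.000287), and the effect was larger than in HCC1937 by 0.54 (adjusted p = 0.00280). The HCC1937 value was 0.31 (SE 0.08, adjusted p = 0.0421), with CSC above non-CSC in every library. That call held without HCC1937 CSC library 3 (adjusted p = 0.0483) and was lost without any of the other 5 single libraries of the line (0.0685 to 0.113) and with no expression minimum (0.0566). In the settings that lost it, the log2 fold change was 0.25 to 0.33. CDK4 overlaps TSPAN31 and MARCH9 on the opposite strand, and the labels do not say whether reads were kept by strand.

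CDK6, the other partner kinase, was 9.68, 8.51 and 9.40 FPKM in SUM149PT CSC and 6.07, 5.75 and 5.55 in non-CSC. The HCC1937 values were 7.13, 8.09 and 8.20 FPKM in CSC and 5.85, 6.25 and 7.48 in non-CSC, and in SUM159PT 0.221, 0.307 and 0.232. SUM149PT CSC was highest and apart, the HCC1937 fractions overlapped each other, HCC1937 non-CSC overlapped SUM149PT non-CSC, and SUM159PT was lowest. Its log2 ratio of SUM159PT to SUM149PT CSC was -4.72, beside a median of -2.81 in genes of the same GC content. The log2 fold change in SUM149PT was 0.66 (SE 0.07, adjusted p = 0.000425), and in HCC1937 it was 0.26 and not called (adjusted p = 0.172). The call of the difference of 0.40 between the lines (adjusted p = 0.0311) was lost when SUM149PT CSC library 1 or 3, SUM149PT non-CSC library 2 or 3, HCC1937 CSC library 1 or HCC1937 non-CSC library 3 was left out (adjusted p of 0.0549 to 0.0702), and with TPM (0.217). The difference itself was 0.30 to 0.39 without those libraries and 0.32 with TPM. As with CDK4, strand use matters here, since CDK6 overlaps the antisense transcript AC002454.1.

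CCNE1 encodes cyclin E1, the partner of CDK2 later in G1. It was 3.53, 3.17 and 2.99 FPKM in SUM149PT CSC and 4.82, 5.36 and 4.76 in non-CSC. HCC1937 had 15.6, 11.8 and 10.4 FPKM in CSC and 13.7, 15.9 and 14.2 in non-CSC, and in SUM159PT 2.35, 2.15 and 1.69. Both HCC1937 fractions were above the other groups and overlapped each other, and SUM149PT non-CSC, SUM149PT CSC and SUM159PT followed without overlap. For SUM159PT over SUM149PT CSC the log2 ratio was -0.62, and genes of the same GC content had a median of 0.04. CCNE1 fell in SUM149PT CSC with a log2 fold change of -0.61 (SE 0.09, adjusted p = 0.00120). The value of -0.23 in HCC1937 was not called (adjusted p = 0.375), nor was the difference between the lines (adjusted p = 0.118), which reached the limit of 0.05 with TPM and passed it without HCC1937 CSC library 3 (0.0327), in a range of 0.0327 to 0.218. The HCC1937 value ran from -0.39 without HCC1937 CSC library 1 to -0.10 without CSC library 3, and the difference from -0.51 without HCC1937 CSC library 3 to -0.21 without HCC1937 CSC library 1. CCNE2, CDK2 and CDC25A, a phosphatase that activates CDK2, were not called in either line, and CCNE2 was 0.924 and 1.06 FPKM in SUM149PT CSC and non-CSC and 13.2 and 13.4 in HCC1937.

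CDKN1B, the gene of p27, was 25.3, 26.9 and 24.6 FPKM in SUM149PT CSC and 41.8, 34.9 and 37.3 in non-CSC. It was 30.7, 27.6 and 31.7 FPKM in HCC1937 CSC, 36.3, 32.1 and 31.7 in HCC1937 non-CSC and 4.51, 5.70 and 4.86 in SUM159PT. The fractions did not overlap in either sorted line, though those of HCC1937 were closer than the digits given, SUM149PT non-CSC overlapped HCC1937 non-CSC, and SUM159PT was below the rest. The log2 ratio of SUM159PT to SUM149PT CSC was -2.33, and -0.97 was the median at the same GC content. Like CCNE1, it fell in SUM149PT CSC, by 0.57 on the log2 scale (SE 0.09, adjusted p = 0.00153), and was not called in HCC1937 (log2 fold change -0.15, adjusted p = 0.288), where the value ran from -0.19 without HCC1937 CSC library 3 to -0.03 with TPM. The effects differed between the lines by -0.41 (adjusted p = 0.0158). Of its relatives, CDKN1A, the gene of p21, was 213 ± 16.5 FPKM in SUM149PT CSC and 208 ± 6.50 in non-CSC (adjusted p = 0.730), and in HCC1937 33.6 ± 4.08 in CSC and 47.3 ± 1.25 in non-CSC (log2 fold change -0.50, adjusted p = 0.0192). CDKN1C was listed at 0 in the 15 libraries.

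RB1, the gene of the retinoblastoma protein on which the pathway converges, was 8.99, 8.26 and 8.73 FPKM in SUM149PT CSC and 2.57, 2.06 and 2.85 in non-CSC. It was 4.33, 4.22 and 4.40 FPKM in HCC1937 CSC, 3.34, 3.35 and 3.79 in HCC1937 non-CSC and 0.579, 0.600 and 0.693 in SUM159PT. No neighbouring groups overlapped in the order SUM149PT CSC, HCC1937 CSC, HCC1937 non-CSC, SUM149PT non-CSC and SUM159PT, so the SUM149PT fractions lay on either side of those of HCC1937. The log2 ratio of SUM159PT to SUM149PT CSC was -3.60, beside a median of -3.03 in genes of the same GC content. In SUM149PT the log2 fold change was 1.77 (SE 0.12, adjusted p = 6.26e-05), and it was larger than in HCC1937 by 1.47 (adjusted p = 1.64e-05). The HCC1937 call (log2 fold change 0.30, SE 0.08, adjusted p = 0.0385) held without HCC1937 non-CSC library 3 (adjusted p = 0.0313). It was lost without any of the other 5 single libraries of the line (0.0803 to 0.129), with TPM (0.0566) and with no expression minimum (0.0519). The log2 fold change stayed at 0.27 to 0.32 without those libraries and at 0.30 with no minimum, and it was 0.43 with TPM. RB1 overlaps LPAR6 and RCBTB2, among others, on the opposite strand, and the labels do not say whether reads were kept by strand.

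**Figure D2:**
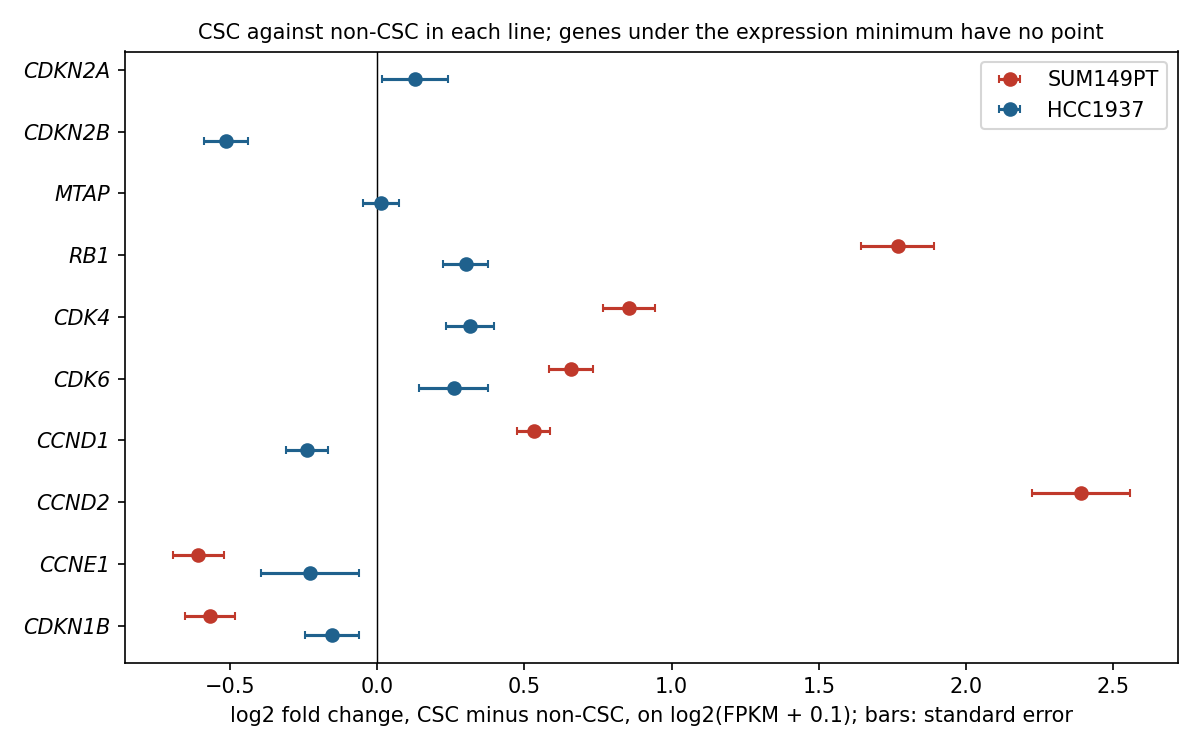
Log2 fold change, CSC minus non-CSC, of the 10 genes in SUM149PT and HCC1937 on log2(FPKM + 0.1), with the standard error as bars; a gene under the expression minimum in a line has no point. RB1 and CCND2 lie farthest to the right in SUM149PT, at 1.77 and 2.39, and the called HCC1937 values run from -0.51 (CDKN2B) to 0.31 (CDK4).

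The wider RB pathway was described from a list of 50 genes in 8 groups by role. In SUM149PT, 47 of the 50 were tested, 15 called higher in CSC and 23 lower, with a median log2 fold change of -0.14, beside 33.3% higher, 41.5% lower and a median of -0.11 over the genes tested. Without those of the 10 genes that are on the list, 40 were tested, 10 higher and 21 lower, with a median of -0.22. In HCC1937, 47 were tested, 4 called higher and 3 lower, beside 10.3% higher and 15.3% lower over the genes tested. The 7 calls were 2 to 5 without a single library, 4 with no expression minimum, 11 with a trend and robust eBayes or a fit over the 15 libraries and 12 after quantile normalization, so no share is read from them. The median of -0.03 was also that over the genes tested. In SUM149PT the list median was thus near that of the table only with the 10 genes included. None of the directions called on the list turned under upper quartile, quantile or TPM scaling, and the call of TFDP1 in SUM149PT was lost under each of the 3.

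Pocket proteins bind E2F factors, and the 3 genes split in SUM149PT. RBL1, the gene of p107, was 0.787, 0.620 and 0.684 FPKM in SUM149PT CSC and 1.69, 1.64 and 1.49 in non-CSC, a log2 fold change of -1.10 (SE 0.10, adjusted p = 0.000160), opposite to RB1. RBL2, the gene of p130, had a log2 fold change of 0.23 in SUM149PT (15.1 ± 0.543 FPKM in CSC, 12.8 ± 0.788 in non-CSC, adjusted p = 0.0232). In HCC1937 RBL2 fell in CSC, from 32.7 ± 1.06 to 22.0 ± 0.251 FPKM (log2 fold change -0.57, adjusted p = 0.00202), and RBL1 was not called (adjusted p = 0.128).

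E2F and DP factors switch on or repress genes of S phase, and E2F7 and E2F8 are among the repressors. The 10 genes of this group were called in SUM149PT, 4 higher and 6 lower in CSC, where 74.8% of the genes tested were called, 33.3% higher and 41.5% lower, a split close to that of the group. E2F7 was 23.4, 22.7 and 23.0 FPKM in SUM149PT CSC and 3.30, 3.50 and 4.13 in non-CSC (log2 fold change 2.63, adjusted p = 5.96e-06). E2F2 went the other way, with 0.139, 0.129 and 0.163 FPKM in CSC and 2.60, 2.53 and 2.87 in non-CSC (log2 fold change -3.51, adjusted p = 2.23e-06). E2F8 was 0.166 FPKM in CSC and 1.43 in non-CSC (log2 fold change -2.52, adjusted p = 3.67e-06), so E2F7 and E2F8 moved in opposite directions. In HCC1937, where 25.6% of the genes tested were called, E2F7 was the 1 called gene of 9 tested (4.39 ± 0.530 FPKM in CSC, 2.74 ± 0.451 in non-CSC, log2 fold change 0.67, adjusted p = 0.0281).

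Ubiquitin ligase parts remove p27 and the cyclins, and 6 genes were on the list. In SUM149PT, 2 were higher and 3 lower in CSC, where 74.8% of the genes tested were called. SKP2, which marks p27 for breakdown, was 4.80, 4.48 and 4.47 FPKM in SUM149PT CSC and 2.46, 2.35 and 2.35 in non-CSC (log2 fold change 0.91, adjusted p = 4.23e-05), beside the fall of CDKN1B mRNA. FBXW7, which marks cyclin E, was 3.78, 3.53 and 3.73 FPKM in CSC and 15.5, 14.9 and 14.0 in non-CSC (log2 fold change -1.98, adjusted p = 4.82e-06), and CCNE1 mRNA fell in the same fraction. FBXO4 was 1.58 ± 0.213 FPKM in CSC and 0.741 ± 0.270 in non-CSC (log2 fold change 1.04, adjusted p = 0.00920). Protein levels were not measured. In HCC1937, 0 of the 6 were called by limma (1 had an unadjusted p under 0.05; 25.6% of the genes tested were called), with adjusted p from 0.105 to 0.939.

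E2F target genes of S phase entry stood lower in SUM149PT than in HCC1937, as a description between lines. MCM2, a subunit of the replicative helicase, was 4.22, 3.96 and 4.05 FPKM in SUM149PT CSC and 9.62, 9.29 and 9.95 in non-CSC, and 62.0, 56.1 and 52.4 in HCC1937 CSC and 54.9, 57.7 and 53.1 in non-CSC. TYMS, thymidylate synthase, had means of 2.88 and 4.27 FPKM in SUM149PT CSC and non-CSC, 87.5 and 78.6 in HCC1937 and 27.1 in SUM159PT. Of the 15 targets, 9 were called lower and 2 higher in SUM149PT CSC, with a median log2 fold change of -0.45, beside 41.5% lower, 33.3% higher and -0.11 over the genes tested. The largest falls were in MCM2 (log2 fold change -1.22, adjusted p = 1.49e-05) and MCM4 (-0.94, adjusted p = 0.000216), while RRM1 and CCNA2 were higher (0.43 and 0.31). In HCC1937 1 of the 15 was called, against 25.6% of the genes tested, namely RRM2, with 28.7, 23.2 and 25.1 FPKM in CSC and 19.6, 20.7 and 19.7 in non-CSC (log2 fold change 0.35, adjusted p = 0.0472). TYMS, RRM1 and CCNA2, like CCND3, CCNE2, CDK2, CDC25A, CDKN1C and TFDP1 above, fall outside the rule for named genes and were named after their values were seen.

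**Figure D3:**
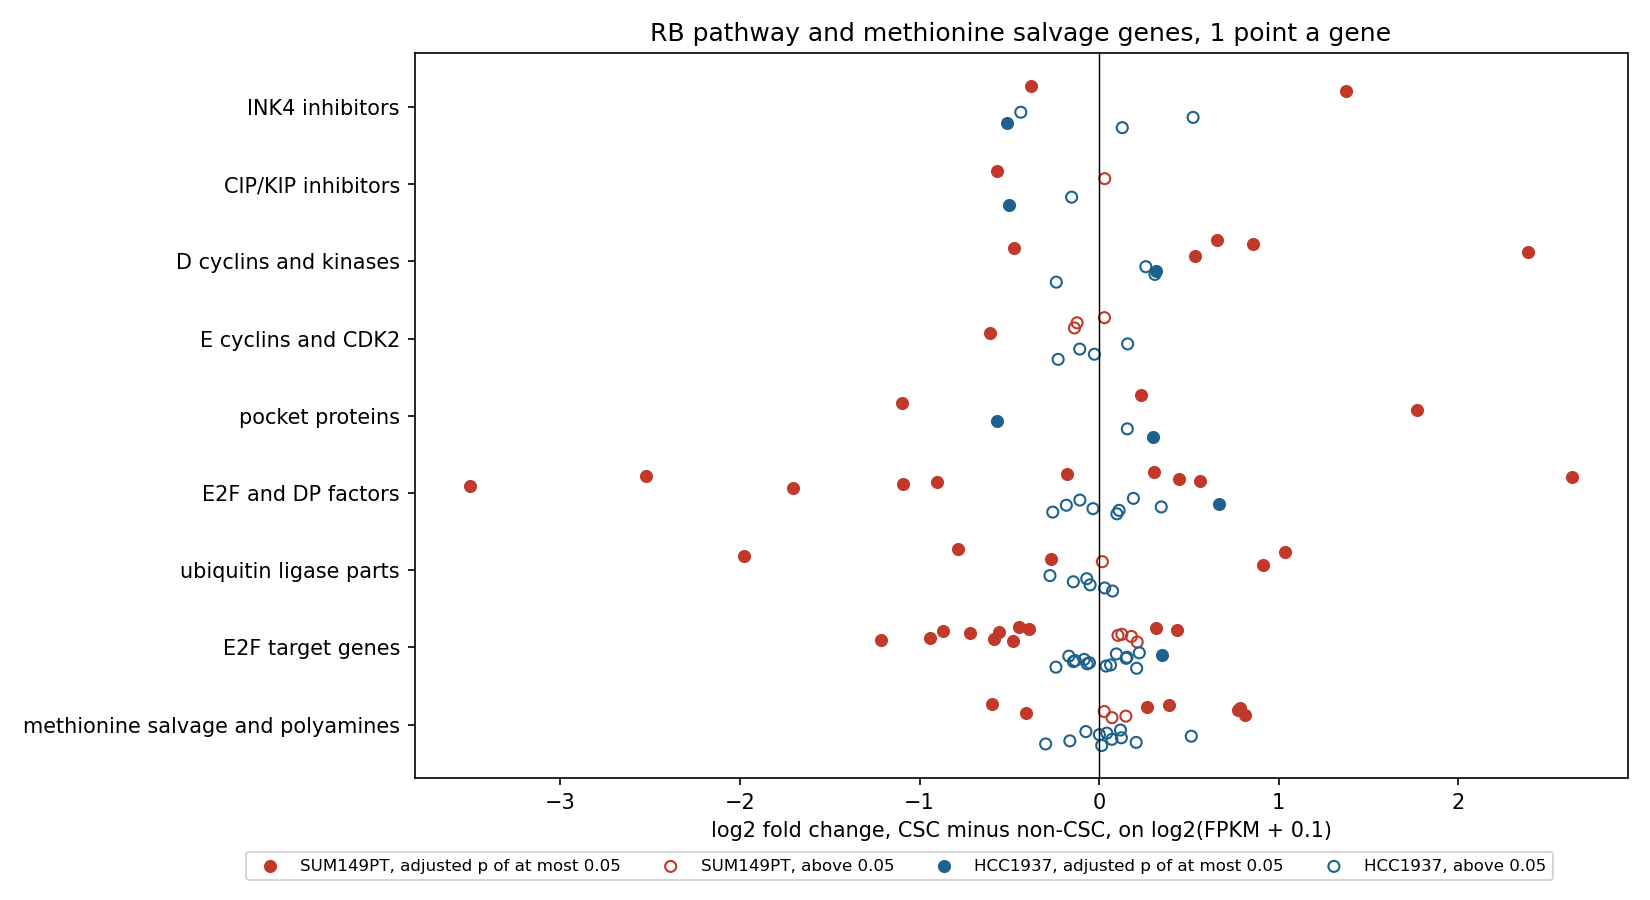
Log2 fold change, CSC minus non-CSC, on log2(FPKM + 0.1), 1 point a gene, for the 8 groups of the RB pathway list and for methionine salvage and polyamine genes; filled points have an adjusted p of at most 0.05. SUM149PT points spread from -3.51 (E2F2) to 2.63 (E2F7), and HCC1937 points lie between -0.57 (RBL2) and 0.67 (E2F7).

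Genes of methionine salvage and polyamine synthesis, the pathway in which MTAP acts, were present in SUM149PT although MTAP was near 0. The list of 11 genes also holds MAT2A, which makes the methyl donor, and the arginine methyltransferase PRMT5 with its partner WDR77. Of the 11, 10 were tested in SUM149PT, 5 higher and 2 lower in CSC, with a median log2 fold change of 0.21, beside 33.3% higher, 41.5% lower and -0.11 over the genes tested. PRMT5 (0.39, adjusted p = 0.00202) was 1 of the 5 and WDR77 (-0.60, adjusted p = 0.00168) 1 of the 2. ENOPH1, an enzyme of methionine salvage, was 28.1, 26.1 and 24.1 FPKM in SUM149PT CSC and 15.9, 13.8 and 14.8 in non-CSC (log2 fold change 0.81, SE 0.09, adjusted p = 0.000349). SRM, spermidine synthase, was 40.9, 50.4 and 45.9 FPKM in CSC and 25.7, 27.4 and 26.8 in non-CSC (log2 fold change 0.77, adjusted p = 0.000502). SMS, spermine synthase, was 14.98, 15.9 and 14.5 and 8.88, 8.31 and 9.05 (log2 fold change 0.78, adjusted p = 0.000123), so both polyamine synthases were higher in the CSC fraction without overlap. The call of ADI1, which was lower, was lost under each of the 3 scalings. In HCC1937, 0 of the 11 were called with limma (2 had an unadjusted p under 0.05; over the genes tested the share called was 25.6%), with adjusted p of 0.0541 or more. SRM was 98.9, 75.5 and 68.3 FPKM in CSC and 55.6, 61.1 and 51.7 in non-CSC (adjusted p = 0.0650). PRMT5, which methylthioadenosine inhibits, was 22.5 ± 1.24 FPKM in SUM149PT CSC, 17.2 ± 0.354 in SUM149PT non-CSC, 61.0 ± 4.22 in HCC1937 CSC, 64.1 ± 2.11 in HCC1937 non-CSC and 48.4 ± 1.06 in SUM159PT, and it was named, like ADI1, MAT2A and WDR77, after its values were seen.

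Around CDKN2A, 132 annotated genes start within 5 Mb, 48 of them were in the table, and 20 reached a mean of 1 FPKM in some group. Of these 20, 6 were under 0.1 FPKM in both SUM149PT and SUM159PT, namely CDKN2A, CDKN2B, MTAP, MIR31HG, IFNE and ADAMTSL1. MIR31HG, the host transcript of a microRNA, lies 0.44 Mb from CDKN2A, and it was 6.31, 6.19 and 5.62 FPKM in HCC1937 CSC, 4.15, 5.97 and 4.91 in HCC1937 non-CSC and at most 0.0350 in each of the other libraries. IFNE, an interferon gene 0.51 Mb away, was 2.61, 3.03 and 3.16 FPKM in HCC1937 CSC, 2.37, 2.61 and 2.58 in HCC1937 non-CSC and at most 0.0257 elsewhere. IFNE lies inside MIR31HG on the same strand, so reads of the pair cannot be told apart with certainty. ADAMTSL1, 4.09 Mb away, was 2.68, 3.16 and 3.14 FPKM in HCC1937 CSC and 0.406, 0.541 and 0.537 in non-CSC and at most 0.0260 in the other lines, with genes at higher levels between it and MTAP.

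Of the 20 genes that reached 1 FPKM, the nearest beyond this set on each side differed in level. KLHL9, 0.66 Mb from CDKN2A, was 2.85, 2.67 and 2.22 FPKM in SUM149PT CSC, 8.44, 7.96 and 7.09 in SUM149PT non-CSC and 0.204, 0.208 and 0.227 in SUM159PT, with means of 8.40 and 7.98 in HCC1937. On the other side, TUSC1, 3.68 Mb away, was 3.42, 3.52 and 2.56 FPKM in SUM149PT CSC, 0.279, 0.324 and 0.301 in SUM149PT non-CSC and 6.37, 7.80 and 6.85 in SUM159PT. Among these 20 genes, low values in SUM149PT thus ran from CDKN2B through MTAP and MIR31HG to IFNE, and KLHL9 was expressed in SUM149PT. No measured gene between IFNE and KLHL9, or between CDKN2B and TUSC1, reached a mean of 1 FPKM in any group. Neither end of the run is therefore resolved further. In SUM159PT KLHL9 was low, with a mean of 0.213 FPKM, but in each library it was above 0.1 FPKM and above IFNE and MTAP. Farther out in SUM159PT, FOCAD (mean 0.0295 FPKM) and PLIN2 (0.0602) were low as well, while RPS6 (1853) and RRAGA (11.6) were not. The GC content of these neighbours was not compared, so where low values end in SUM159PT is not settled. CDKN2B-AS1, an antisense transcript that crosses CDKN2B and the start of CDKN2A, and DMRTA1 on the far side of CDKN2B were listed at 0 in each library of SUM149PT and SUM159PT, though both were low in HCC1937 as well, at 0.332, 0.388 and 0.256 FPKM and 0.0687, 0.231 and 0.251 FPKM in CSC. Both were named after their values were seen. Since strand use is not stated, reads of CDKN2B-AS1 and of the genes it crosses cannot be told apart.

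**Figure D4:**
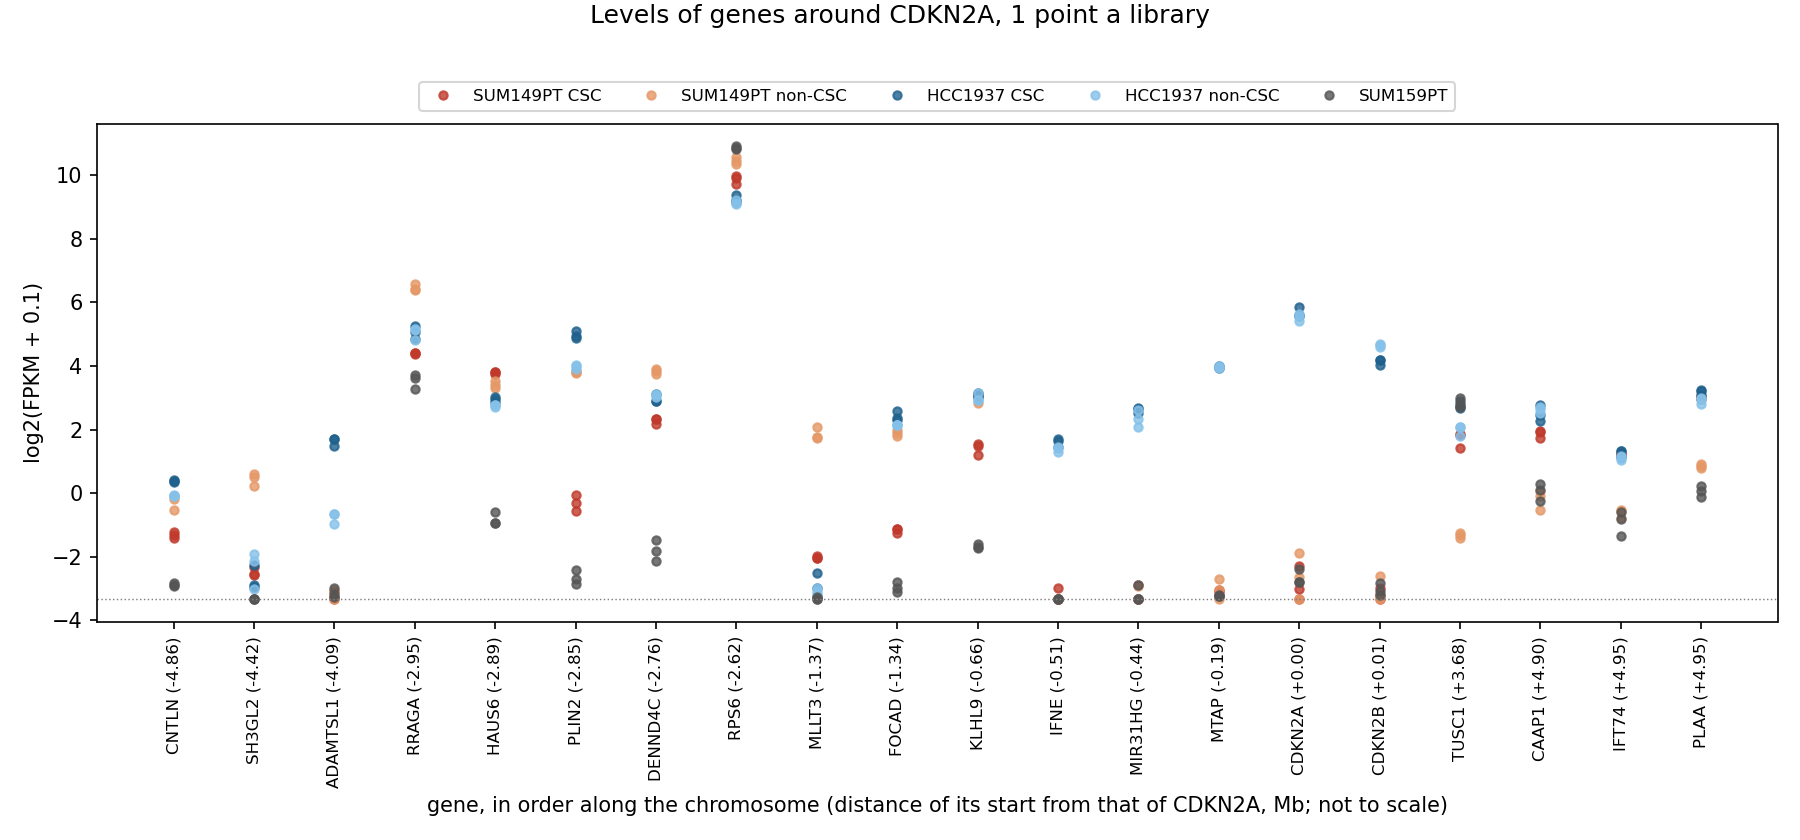
Level as log2(FPKM + 0.1) of the 20 genes within 5 Mb of CDKN2A whose mean reached 1 FPKM in some group, 1 point a library, in their order along the chromosome and not to scale. IFNE, MIR31HG, MTAP, CDKN2A and CDKN2B, side by side, are near the dotted line of 0 FPKM in SUM149PT and SUM159PT and above it in HCC1937, and ADAMTSL1 is the other gene with this pattern.

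Among the 20 genes that reached 1 FPKM the fractions of SUM149PT differed by side of CDKN2A, a split made after the values were seen. On the side of lower coordinates, 9 of 10 tested genes were lower in CSC and 1 was higher (HAUS6, log2 fold change 0.37), with a median of -1.81, beside 41.5% lower, 33.3% higher and a median of -0.11 over the genes tested. PLIN2, a coat protein of lipid droplets, was 0.855, 0.582 and 0.700 FPKM in CSC and 13.9, 14.1 and 13.5 in non-CSC (log2 fold change -4.12, adjusted p = 4.08e-06). MLLT3 (-3.88), FOCAD (-3.05), SH3GL2 (-2.92), RRAGA (-2.06), KLHL9 (-1.57), DENND4C (-1.54), CNTLN (-1.05) and RPS6 (-0.59) were also lower. Of these, MLLT3 (3.56 FPKM) and SH3GL2 (1.27 FPKM) reached a mean of 1 FPKM in SUM149PT non-CSC alone, so that limit favoured their fall. The counts and medians by side are therefore a description, and no conclusion is drawn from them. On the side of higher coordinates 4 of 4 were higher in CSC, with a median of 2.10, namely TUSC1 (3.01), PLAA (2.15), CAAP1 (2.04) and IFT74 (1.83).

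In HCC1937, 4 of 15 such neighbours were called, a share near the 25.6% of the genes tested, and each was higher in CSC (10.3% of the genes tested), with a median of 0.21 beside -0.03. These were ADAMTSL1 (log2 fold change 2.38, adjusted p = 0.000249), PLIN2 (1.004, adjusted p = 0.00103), TUSC1 (0.77, adjusted p = 0.00573) and CNTLN (0.46, adjusted p = 0.00393). PLIN2 and CNTLN thus moved in opposite directions in the sorted lines, and the interaction was called for both (-5.12, adjusted p = 1.08e-08, and -1.51, adjusted p = 1.31e-05). These counts leave out CDKN2A, CDKN2B and MTAP. Of the 4 called neighbours, ADAMTSL1 and CNTLN reached a mean of 1 FPKM in HCC1937 CSC alone, so that limit favoured their rise. The counts by direction and the median in HCC1937 are therefore a description, and no conclusion is drawn from them. No called direction of a neighbour turned under upper quartile, quantile or TPM scaling.

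**Figure D5:**
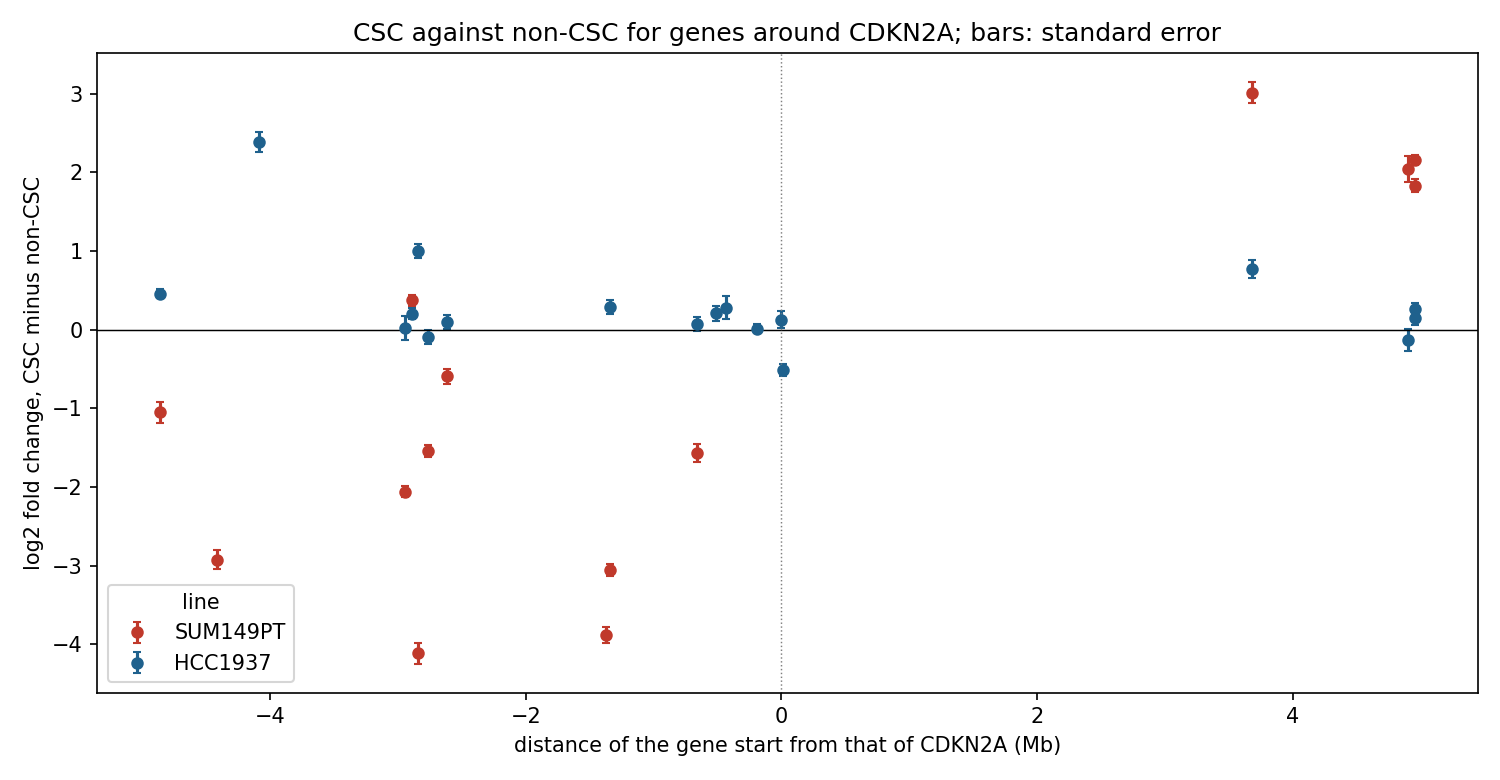
Log2 fold change, CSC minus non-CSC, against the distance of the gene start from that of CDKN2A in Mb, with the standard error as bars, for those of the 20 genes tested in SUM149PT and HCC1937. SUM149PT points are below 0 on the left except HAUS6 and above 0 on the right, from 1.83 to 3.01.

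The genes whose levels followed CDKN2A and MTAP most closely over the 15 libraries were also near 0 in SUM149PT and SUM159PT and above it in HCC1937. For CDKN2A, the highest Pearson correlations of log2(FPKM + 0.1) among 13840 genes were with AFAP1-AS1 (r = 0.998), MTAP (0.997), TDRD12 (0.997), ZNF418 (0.997) and LINC01019 (0.997). For MTAP they were ZNF418 (r = 0.9995), ZNF667 (0.999), LINC01019 (0.999), AFAP1-AS1 (0.999) and ZNF542 (0.999). The libraries fall into a high and a low cluster by line, so each r mainly restates that split and has no test. AFAP1-AS1 had means of 13.4 FPKM in HCC1937 CSC and 10.2 in HCC1937 non-CSC, 0.0125 and 0.0227 in SUM149PT CSC and non-CSC and 0.00813 in SUM159PT.

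Markers of cell state moved with the same comparison. In SUM149PT, 7 of 7 epithelial markers were lower in CSC (41.5% of the genes tested), with a summed level of 129, 134 and 131 FPKM in the CSC libraries and 1825, 1782 and 1805 in non-CSC, and KRT19 the most abundant. In HCC1937, 7 of 7 were lower in CSC as well (15.3% of the genes tested), with sums of 635, 588 and 532 FPKM in CSC and 1617, 1639 and 1403 in non-CSC, led by KRT8 and KRT18. The sums in SUM159PT were 293, 277 and 292 FPKM, mostly from KRT8 and KRT18 (means of 132 and 153). Every other epithelial marker of the list had a lower mean in SUM159PT than in SUM149PT CSC, with EPCAM at 0.0467 and CDH1 at 0.0681 FPKM. The SUM159PT sum thus follows KRT8 and KRT18 and not the whole list. All 4 mesenchymal markers on the list were higher in CSC of both sorted lines (33.3% of the genes tested in SUM149PT and 10.3% in HCC1937), with sums of 2338, 2486 and 2397 FPKM in SUM149PT CSC and 456, 447 and 508 in non-CSC. They were 1077, 947 and 923 FPKM in HCC1937 CSC, 140.5, 211 and 186 in HCC1937 non-CSC and 1227, 1234 and 1257 in SUM159PT, with VIM the most abundant in each group. In SUM159PT the means of ZEB1 (0.204 FPKM) and CDH2 (2.86) were below those of every sorted group, and FN1 was 158. The SUM159PT sum thus follows VIM (1078) and not the whole list. The part of this shift in the changes of RB1, the cyclins, the kinases and the 9p21 neighbours was not tested.

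Markers of other cell types were mostly low. Of the leukocyte markers, PTPRC and CD3E were under 0.1 FPKM in each library, and CD3E was listed at 0 in the 15 libraries. CD14 and CD68 made up the sums of 19.1, 19.3 and 18.2 FPKM in SUM149PT CSC, 101, 95.6 and 103 in SUM149PT non-CSC, 108, 107 and 93.5 in HCC1937 CSC, 71.0, 72.5 and 67.4 in HCC1937 non-CSC and 50.2, 54.0 and 47.7 in SUM159PT. The 3 endothelial markers were under 1 FPKM in every library, with sums of 0.171, 0.162 and 0.157 in SUM149PT CSC, 1.59, 1.83 and 1.71 in SUM149PT non-CSC, 0.773, 0.695 and 0.660 in HCC1937 CSC, 0.968, 0.797 and 0.871 in HCC1937 non-CSC and 0.0699, 0.0653 and 0.0804 in SUM159PT, led by PECAM1 except in SUM149PT non-CSC, where VWF led. Fibroblast markers summed to 232, 235 and 229 FPKM in SUM149PT CSC, 65.5, 67.1 and 68.9 in SUM149PT non-CSC, 12.4, 12.7 and 11.7 in HCC1937 CSC, 6.08, 7.26 and 7.81 in HCC1937 non-CSC and 41.8, 46.9 and 44.9 in SUM159PT, with COL1A1 the most abundant in each. Of the 5 tested in SUM149PT, 3 were called higher in CSC and 2 lower, beside 33.3% higher and 41.5% lower over the genes tested. The lower ones were DCN (1.80 FPKM in CSC and 16.2 in non-CSC, log2 fold change -3.10, adjusted p = 3.62e-06) and LUM (0.165 and 0.391 FPKM, -0.88, adjusted p = 0.00308), so the sum follows COL1A1 and not the whole list. In HCC1937, 2 of the 3 tested were called, both higher in CSC, beside 10.3% of the genes tested. Mesenchymal tumour cells express fibroblast markers too, so the lists do not separate the cell types. The part of these genes in the results above was not tested.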

How the data were processed

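Messenger RNA of 15 libraries (oligo(dT) selection) was measured by the authors, who deposited a table of FPKM values, 1 column a library. The submitters' processing notes credit Bowtie2 and GRCh38, and the quantifier, its annotation, any scaling between libraries and the use of strand are not given in the sources used here. From the deposited FPKM, log2(FPKM + 0.1) was taken and genes with a mean under 0.1 FPKM over the libraries fitted were left out of that fit. Fractions were compared with limma 3.58.1 (lmFit and eBayes, R 4.3.3), within each line and as an interaction of line and fraction over the 12 sorted libraries. The fit assumes a single spread per gene over its groups, and the code was tested on simulated data. Adjusted p-values are Benjamini-Hochberg over the genes tested. Of the stricter limits used beside 0.05, that on the adjusted p is the study's, and that on the log2 fold change was chosen here, since the study's second cutoff is not stated as a fold change. Tables and figures were made with Python 3.11.15, pandas 2.3.3, numpy 2.4.6 and matplotlib 3.10.9.

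Levels between lines were not tested. Absolute depth could not be recovered from the values. The 10 genes and the gene lists were chosen with earlier results of these data known. Named genes are the 10, up to 3 genes of each list and line with the largest change among those called without overlap of the fractions, the 9p21 neighbours that reached a mean of 1 FPKM in a group, and the 5 genes most correlated with CDKN2A and with MTAP. A gene that this rule would name and a marker of the lists are not reported here, though list counts and sums include them. Neighbours, transcript GC content and overlaps come from GENCODE on GRCh38, with distances between gene starts on their own strands, and promoters from the RefSeq table of GRCh38.p14. Alternatives tried were pseudocounts of 0.01 and 1, no minimum and a minimum of 1 FPKM, scaling by upper quartile, by quantiles or to TPM, robust eBayes with a mean trend, a fit over the 15 libraries, a replicate block, the stricter limits, and leaving out each library in turn.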

Additional observations from a re-analysis of the deposited data

Results flagged for a closer look

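A difference in the CSC effect of the sorted lines was called for 6 of the 10 genes by the interaction test of limma, beside 61.1% of all genes tested, and no share is read from this, since CDKN2A, CDKN2B, MTAP and CCND2 were under the minimum in 1 of the lines. The difference, SUM149PT minus HCC1937 in log2 fold change, was 1.47 for RB1 (adjusted p = 1.64e-05). For CCND2 it was 2.46 (adjusted p = 2.46e-06), but CCND2 was at most 0.0116 FPKM in HCC1937 and under the minimum there, so this restates its SUM149PT change and is not read as a difference between the lines. It was 0.77 for CCND1 (adjusted p = 2.23e-05), whose libraries were higher in CSC of SUM149PT and lower in CSC of HCC1937. For CDK4 it was 0.54 (adjusted p = 0.00280) and for CDK6 0.40 (adjusted p = 0.0311), and both had a positive fold change in each line. For CDKN1B it was -0.41 (adjusted p = 0.0158), with a negative fold change in each line.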

How the results depend on the processing

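Single genes among the 10 were followed under other settings, with 111 values in SUM149PT, 144 in HCC1937 and 219 for the interaction. Of these, 439 kept their direction and their side of the limit, 22 were no longer called, 9 became called and 4 turned in sign. With the stricter limits, 2 of the 10 genes were called in SUM149PT (7 before), 2 for the interaction (6 before) and 0 in HCC1937 (3 before; limma, with 5886 of all genes at an unadjusted p under 0.05). On the RB pathway list the counts were 9 of 47 tested in SUM149PT (38 before) and 0 of 47 in HCC1937 (7 before). Over all genes tested, 20.5% and 0% passed these limits. In HCC1937, 1 of the 10 was called with no expression minimum, and leaving out a single library gave 1 to 2. The RB pathway count of 7 in HCC1937 was 4 with no expression minimum, 11 with a trend and robust, 11 in the fit over 15 libraries, 12 after quantile normalization and 2 to 5 without a single library. A replicate block gave 1 of the 10 genes and 4 of the pathway list in HCC1937, where it called 3066 of all 15582 genes tested (3985 before). RB1 (adjusted p = 0.0732) and CDK4 (0.0710) were no longer called there, with log2 fold changes still at 0.30 and 0.31. In HCC1937 the replicate numbers did not pair the fractions. Deviations from the group mean correlated there at -0.130 to -0.0280 between libraries of the same number and at -0.0852 to 0.127 of different numbers. In SUM149PT these ranges were 0.0223 to 0.143 and -0.199 to 0.0651, so whether the numbers pair the fractions there is not settled. With the block, 7 of the 10 genes were called in SUM149PT, as without it. The best correlation of a library was with its own number in 4 of 6 libraries of SUM149PT and 0 of 6 of HCC1937. For MTAP in HCC1937 the log2 fold change without a single library ran from -0.0053 to 0.029, below 0 without CSC library 3 (-0.0053) and non-CSC library 3 (-0.0018). The interaction of MTAP, which is not read because MTAP was near 0 in SUM149PT, turned to 0.12 after quantile normalization, and without a single library it ran from -0.28 to 0.039, the last without SUM149PT non-CSC library 2. The count of 3 genes with a mean under 0.1 FPKM in SUM149PT was 2 with TPM, where CDKN2A was above the limit, and 4 at a limit of 1 FPKM. In each of these cases the cause was not tested. Without read counts, the lowest level that could be told from 0 is unknown.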

Other observations

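CDKN1A and the D cyclin gene CCND3 showed large line differences that no comparison above covers. CDKN1A, the gene of the inhibitor p21, had a mean of 213 FPKM in SUM149PT CSC and 208 in SUM149PT non-CSC, against 33.6 and 47.3 in HCC1937 CSC and non-CSC and 47.4 in SUM159PT. CCND3 had a mean of 108 FPKM in SUM159PT and at most 21.1 in the other groups. E2F1, the factor that RB holds in check, was 0.754, 0.592 and 0.673 FPKM in SUM149PT CSC and 2.27, 2.43 and 2.54 in SUM149PT non-CSC. In the other lines its means were 34.8 in HCC1937 CSC, 32.4 in HCC1937 non-CSC and 26.6 in SUM159PT. MYBL2, an E2F target, followed the same line order, with means of 2.97 and 4.11 FPKM in SUM149PT CSC and non-CSC, 80.3 and 68.5 in HCC1937 and 27.8 in SUM159PT. These 4 genes were named after their values were seen, and levels between lines were not tested.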
